A study of Mus musculus with 55 samples.

Results

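Serpinb2 and Cemip are the 2 genes described here, of 24478 gene symbols in a table of RNA levels from sorted mouse liver cells. They were chosen from earlier results of the same table because their RNA rose after partial hepatectomy (PH, surgical removal of part of the liver) in the sorts named NPD (non-progenitor ducts) and Thy1. Their own levels and changes are therefore given as a description with no test. The study measured 55 libraries by RNA sequencing, 27 from normal liver and 28 from liver after PH, in 10 populations sorted by fluorescence into TRIzol. All groups share the strain C57B/L6 and differ in population and treatment, and the labels give no genotype, age, time after surgery, sort marker or pooling of animals. The populations were NPD, Thy1 cells, endothelial cells (EC), sinusoidal endothelial cells (LSEC), clonal biliary cells (cBEC), biliary cells (BEC), hepatocytes (HC), stellate cells (HSC), Kupffer cells (KC) and blood cells. NPD and Thy1 have 2 normal and 2 PH libraries each, and the groups of the other populations have 2 to 5. Nothing in the labels says that replicates came from separate animals, so the p-values below measure the spread between these libraries, which may be technical.

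Serpinb2 encodes plasminogen activator inhibitor 2, a clade B serpin. Serpins trap proteases, and this one is known for blocking urokinase (Plau) and tissue plasminogen activator (Plat), the enzymes that turn plasminogen into plasmin. It is also known as a gene that monocytes, macrophages and keratinocytes can switch on strongly. Cemip (also called KIAA1199) encodes a secreted protein that binds hyaluronan, the large sugar polymer of the pericellular matrix, and is needed for its breakdown by fibroblasts. Both therefore belong to systems that remodel the matrix around cells, 1 through a protease cascade and 1 through a polysaccharide.

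The deposited coordinates are of mm9, the build named in the submitters' processing notes. Serpinb2 lies on the plus strand of chromosome 1 from 109408000 to 109422177, a span of 14178 bases. Cemip lies on the minus strand of chromosome 7 from 91081367 to 91235015, a span of 153649 bases. The GENCODE annotation of GRCm38 gives the matching transcripts 8 exons and 1970 bases for Serpinb2 and 29 exons and 7111 bases for Cemip. The table has 2 rows for Serpinb2, whose starts are 87 bases apart, and the row with the higher mean was used. They differed by at most 2.14% in the 19 libraries where either reached 1 FPKM (fragments scaled for the length of the transcript and for the library). Cemip has 1 row.

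The promoters are shown because the RNAs of both genes were high in the same libraries. Each is the 250 bases before the start in the RefSeq table of build GRCm38.p6, read 5′ to 3′ on the strand of the gene, with matches to the motifs searched in capitals. The Serpinb2 window is chr1:107511173-107511422 (plus strand) and the Cemip window is chr7:84086506-84086755 (minus strand).
Serpinb2: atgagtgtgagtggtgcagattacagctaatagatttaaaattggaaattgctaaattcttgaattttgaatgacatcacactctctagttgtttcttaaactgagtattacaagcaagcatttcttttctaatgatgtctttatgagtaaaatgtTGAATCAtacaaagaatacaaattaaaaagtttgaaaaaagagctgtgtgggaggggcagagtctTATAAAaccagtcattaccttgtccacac
Cemip: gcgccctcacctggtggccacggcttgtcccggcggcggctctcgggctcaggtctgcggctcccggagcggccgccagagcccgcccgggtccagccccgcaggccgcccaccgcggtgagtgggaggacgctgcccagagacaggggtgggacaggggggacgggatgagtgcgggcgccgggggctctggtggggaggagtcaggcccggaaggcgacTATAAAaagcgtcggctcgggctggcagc

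The base composition of these windows differed widely. The Serpinb2 window was 32.4% G or C with 0 CG pairs, lower in GC than all but 2.6% of the 32851 windows of the same length in the table. The Cemip window was 75.2% G or C with 26 CG pairs, and 96.1% of windows were lower. The median over all windows was 52.4%. What the windows shared was the core promoter motif TATAAA, whose first base stood 29 bases before the start in both. It was found on either strand in 12.4% of all windows. The letters of an AP-1 site, TGANTCA, occurred once in the Serpinb2 window, beginning 94 bases before the start, and not in the Cemip window. They were found in 6.75% of all windows. The other motifs searched on both strands had no match in either window: the cyclic AMP response element TGACGTCA, found in 1.55% of windows, and the TEAD letters GGAATG, found in 12.6%. For the other annotated start of Serpinb2, 87 bases later, the same TATAAA stood 116 bases before it and the AP-1 letters 181, and that window was 38.4% G or C, with 9.0% of windows lower. No match overlapped another. These are matches of letters, and binding was not measured.

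Some features of the files touch the values below. Hepatocyte values are rounded to 0.01 FPKM. In 46 of the 47 other libraries the low values of transcripts absent from hepatocytes were whole multiples of a constant of 0.010 to 0.0115 FPKM, within 0.02 of 1 step, and library 3 of PH KC lacked such steps. Levels near 0.01 FPKM are thus at the resolution of the table, and the read depth is unknown. Summed FPKM over all 36141 transcript rows ranged from 624726 to 1.2032e+06 per library. Some genes abundant in hepatocytes, albumin among them, are listed at exactly 0 in NPD and Thy1, so a 0 is given as a listed value. Others are not, such as Ambp, with a mean of 2875 FPKM in normal hepatocytes and 84.9 FPKM in normal NPD. Serpinb2 reached at most 0.02 FPKM and Cemip at most 0.0400 FPKM in the 8 hepatocyte libraries. PH cBEC library 1 carries the treatment tag normal, against its title, and its values are given with and without it.

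The labels of both sorts were compared with marker genes. All 11 measured mesothelial markers (genes of the liver's surface lining, such as Msln, Upk3b and Wt1) were at or above 1 FPKM in every NPD and Thy1 library. Their summed FPKM was 8222 and 7685 in normal NPD, 5216 and 5955 in PH NPD, 3802 and 2588 in normal Thy1, and 2189 and 1316 in PH Thy1. Duct markers such as Krt19 and Epcam were present in NPD too, with a sum of 3866 and 2625 in normal and 4734 and 3961 in PH libraries, below the 9649 to 21752 of the normal cBEC and BEC libraries. In Thy1 their sum was 881 and 5163 in normal and 1353 and 861 in PH libraries. Thy1, the gene that names the other sort, was at 377 and 85.7 FPKM in normal Thy1 libraries and at 54.6 and 33.4 FPKM in PH Thy1 libraries. In NPD it was at 86.5 and 74.6 FPKM in normal libraries and at 27.3 and 33.7 FPKM in PH libraries. Thy1 RNA thus did not separate the 2 sorts in normal liver or after PH, since their ranges overlap in each. In bulk libraries, fewer cells of a type and less RNA per cell cannot be told apart.

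Serpinb2 was almost absent from normal NPD and Thy1 libraries and was among the abundant RNAs of both after PH. In NPD it was at 0.183 and 0 FPKM in normal libraries and at 223.0 and 167.7 FPKM after PH. In Thy1 it was at 0.0860 and 0.104 FPKM in normal libraries and at 170.1 and 214.2 FPKM after PH. The PH values of the 2 sorts interleave, and no PH library approached a normal library. The means after PH were 195.3 ± 39.1 FPKM in NPD and 192.1 ± 31.2 FPKM in Thy1 (SD, n = 2 each). On log2(FPKM + 1) the change was 7.48 in NPD and 7.45 in Thy1, which ranked 1 among the rises of the 13024 and 13389 symbols that passed the filter on low values (at least 1 FPKM in at least 2 of the 4 libraries). By level, Serpinb2 ranked 295 of 12730 symbols in PH NPD and 304 of 12905 in PH Thy1.

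Cemip went from the resolution of the table to a moderate level in the same 4 libraries. In NPD it was at 0 and 0.02 FPKM in normal libraries and at 12.6 and 10.5 FPKM after PH. In Thy1 it was at 0.0527 and 0.0408 FPKM in normal libraries and at 8.20 and 4.39 FPKM after PH. The PH groups did not overlap the normal groups or each other, and NPD was the higher. The means after PH were 11.6 ± 1.43 FPKM in NPD and 6.30 ± 2.70 FPKM in Thy1 (SD, n = 2 each). The change on log2(FPKM + 1) was 3.63 in NPD, rank 22 among rises, and 2.75 in Thy1, rank 36. By level Cemip ranked 7009 in PH NPD and 9040 in PH Thy1.  A pseudocount of 1 compresses the change of so low a gene more than that of Serpinb2.

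**Figure D1:**
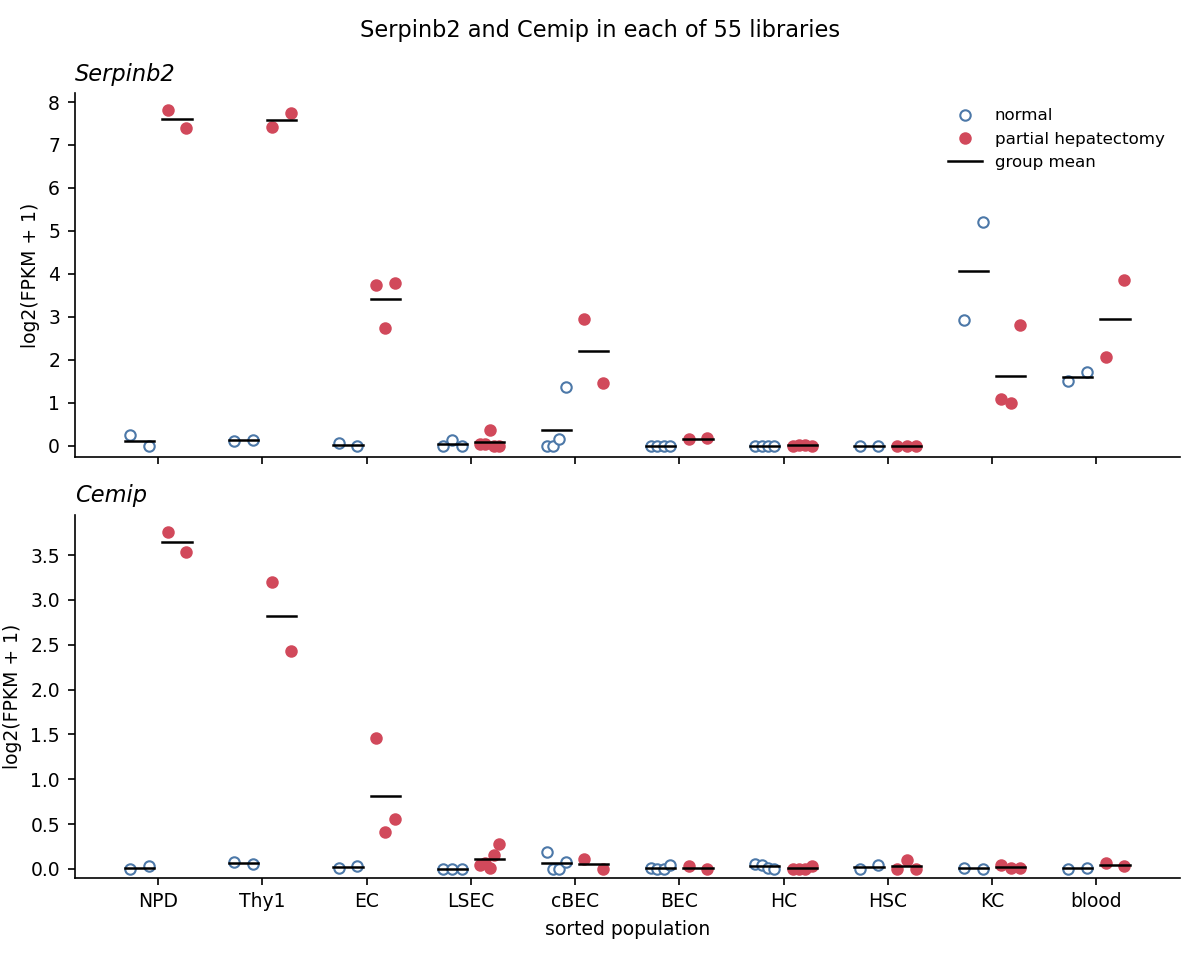
Each point is 1 library, as log2(FPKM + 1) on the vertical axis, for Serpinb2 (top) and Cemip (bottom) in the 10 sorted populations, with open points for normal liver, filled points for partial hepatectomy and a bar at each group mean. The 4 PH libraries of NPD and Thy1 stand above all 51 others for both genes, with PH EC next for Cemip and normal KC library 2 next for Serpinb2.

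Set against the rest of the series, the lowest of these 4 libraries held 167.7 FPKM of Serpinb2 and the highest of the other 51 held 36.0 FPKM, in normal KC. For Cemip the corresponding values were 4.39 and 1.75 FPKM, the latter in PH EC. The PH population next in order for both genes was EC. Mean Serpinb2 in PH NPD was 18.9 times, and in PH Thy1 18.6 times, the mean in PH EC. For Cemip the ratios were 13.6 and 7.41.

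The change of each gene in the 2 sorts is set side by side as a description with no test, because the genes were chosen on these libraries. In a limma fit of all 20 groups the log2 change of Serpinb2 in NPD minus that in Thy1 was 0.03 (SE 0.72). The sign of so small a difference turned with the scaling of the libraries and with the library left out. For Cemip the difference was 0.88 (SE 0.26). Without PH Thy1 library 1, the higher of its pair, it was 1.27, and without library 2 it was 0.49.

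The ratio of the 2 RNAs also varied among libraries. Serpinb2 was 17.8 and 15.9 times Cemip in the PH NPD libraries, 20.7 and 48.8 times in PH Thy1, and 7.10, 17.3 and 27.2 times in PH EC, all in FPKM. In Thy1, library 2 had the more Serpinb2 and the less Cemip of the pair.

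The EC sort showed the same direction at a lower level. Serpinb2 was at 0.0401 and 0 FPKM in normal EC and at 12.4, 5.70 and 12.9 FPKM in PH EC, with a mean after PH of 10.3 ± 4.02 FPKM (SD, n = 3). Cemip was at 0.00998 and 0.02 FPKM in normal EC and at 1.75, 0.328 and 0.472 FPKM in PH EC. The groups did not overlap for either gene, and the log2 changes were 3.40 and 0.79. The share of all symbols without overlap in EC was not computed. Mesothelial markers moved beside them: their summed FPKM was 63.3 and 246 in normal EC and 791, 213 and 337 in PH EC. These sums overlap, since the 213 is below the 246, and PH EC library 1 had both the highest sum and the highest Cemip. Duct markers did not overlap, with sums of 45.4 and 58.4 in normal and 325, 168 and 316 in PH EC. The part of these cells in the result was not tested.

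In the remaining populations Cemip stayed at or below 0.210 FPKM, the value of PH LSEC library 5. LSEC values were 0 in all 3 normal libraries and from 0.01 to 0.210 FPKM, with a median of 0.0501, in the 5 PH libraries. The normal library with the most Cemip was cBEC library 1, at 0.143 FPKM, which also had the most mesothelial marker RNA of the 4 normal cBEC libraries, with a sum of 649 against 183 to 247. For Cemip the PH libraries lay above all normal libraries in 6 of 10 populations, namely NPD, Thy1, EC, LSEC, KC and blood, and overlapped in the other 4. In NPD 36.9% and in Thy1 24.5% of all tested symbols had every PH library above normal. The share in the other populations was not computed. In KC and blood the values on both sides were below 0.05 FPKM.

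Serpinb2 had a wider distribution than Cemip. In Kupffer cells, the resident macrophages of the liver, it was at 6.66 and 36.0 FPKM in normal libraries and at 1.14, 1.0 and 5.97 FPKM after PH. These groups did not overlap and were ordered the other way from NPD and Thy1, with a log2 change of -2.44. The share of all symbols ordered this way in Kupffer cells was not computed. The normal pair differed widely, and PH library 3, the highest, is the library without the value steps. Macrophage markers (among them Clec4f and Csf1r) had a summed FPKM of 14016 and 12451 in the normal and 21182 to 22792 in the PH Kupffer libraries, so less Serpinb2 stood beside more of these markers. Sinusoidal endothelial markers moved the other way, with sums of 3014 and 4187 in normal and 289, 261 and 460 in PH Kupffer libraries, as did the general endothelial markers, at 1344 and 1673 against 355, 308 and 548. Their part in the result was not tested.

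In blood cells Serpinb2 was at 1.84 and 2.28 FPKM in normal and at 3.21 and 13.4 FPKM in PH libraries, a log2 change of 1.35. The summed macrophage markers there were 880 and 1084 in normal and 7287 and 12989 in PH libraries, and the neutrophil markers 4047 and 3727 against 2327 and 954. Monocyte markers summed to 1344 and 1905 in normal and 433 and 489 in PH blood, lymphocyte markers to 2127 and 2184 against 21.0 and 55.2, and sinusoidal endothelial markers to 672 and 774 against 2255 and 5160. The PH blood library with more macrophage marker RNA was the one with more Serpinb2. That library also had more duct marker RNA, with a sum of 489 against 157, where normal blood had 31.4 and 100. It had less neutrophil, monocyte and general endothelial marker RNA than the other PH blood library. The part of these cells was not tested. In NPD and Thy1 the same macrophage markers were low after PH, with sums of 43.7 and 33.9 in NPD and 17.7 and 8.54 in Thy1, below the 70.4 to 245 of their normal libraries. Summed monocyte markers were higher in every PH library of these sorts: 148 and 72.3 in normal and 202 and 225 in PH NPD, and 45.5 and 182 in normal and 324 and 248 in PH Thy1. In every NPD library, and in library 2 of each Thy1 group, only 1 of the 5 markers reached 1 FPKM. Those sums are thus mainly the level of 1 gene. The mean log2(FPKM + 1) of the list was 1.61 and 1.35 in normal and 1.66 and 1.58 in PH NPD. In Thy1 it was 1.505 and 1.805 in normal and 2.758 and 1.764 in PH libraries, which overlap. The part of monocytes in the level of Serpinb2 was not tested.

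In cBEC Serpinb2 was at 0, 0, 0.123 and 1.56 FPKM in normal libraries and at 6.71 and 1.77 FPKM in PH libraries. The 6.71 belongs to the library tagged normal. Without it PH cBEC rests on the value of 1.77 FPKM and moves from place 5 to place 6 in the order of PH populations. In BEC it was 0 in all 4 normal libraries and 0.119 and 0.130 FPKM after PH. LSEC had at most 0.10 FPKM in normal and 0.291 FPKM in PH libraries. All 5 stellate libraries were listed at 0.

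By mean level after PH, the order of Serpinb2 was NPD, Thy1, EC, blood, cBEC, KC, BEC, LSEC, HC and HSC. NPD and Thy1 overlapped, as did each neighbouring pair from EC to KC, while Thy1 and EC did not overlap and neither did KC and BEC. In normal liver the order began with KC and blood, which did not overlap each other or cBEC, the next in order. For Cemip after PH the order began with NPD, Thy1, EC and LSEC with no overlap between neighbours, and every neighbouring pair below LSEC overlapped. In normal liver all 27 libraries were at or below 0.143 FPKM. PH Serpinb2 lay above normal in 6 populations, below it in Kupffer cells, and overlapped in LSEC, hepatocytes and stellate cells. Of all tested symbols, 36.9% in NPD and 24.5% in Thy1 had every PH library above normal. That share was not computed in the other populations.

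Because the mesothelial markers were high in the sorts where both genes rose, the level of each gene was also set against their sum. Over the 7 PH libraries of NPD, Thy1 and EC, Cemip ranged from 0.328 to 12.6 FPKM, a ratio of 38.2. Per 100 FPKM of summed mesothelial markers it was 0.241 and 0.177 in NPD, 0.375 and 0.333 in Thy1, and 0.221, 0.154 and 0.140 in EC, and the highest was 2.67 times the lowest. Serpinb2 ranged over a ratio of 39.1 in FPKM and 10.4 per unit of the markers. Its values per 100 FPKM were 4.28 and 2.82 in NPD, 7.77 and 16.3 in Thy1, and 1.57, 2.68 and 3.82 in EC. Over all 12 PH libraries with a marker sum of at least 50 FPKM, Cemip per 100 FPKM ran from 0 to 0.375 and Serpinb2 from 0 to 16.3. Set against the duct markers in the same 7 libraries, the highest value per 100 FPKM was 4.05 times the lowest for Cemip and 7.34 times for Serpinb2, so for Serpinb2 the spread was narrower per duct marker than per mesothelial marker.

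Among the 14 normal libraries with a marker sum of at least 50 FPKM, the highest value per 100 FPKM was 0.632 for Serpinb2, in cBEC library 4, and 0.0299 for Cemip, in BEC library 4. Normal NPD, with the most marker RNA of any group, gave 0.00223 and 0 for Serpinb2 and 0 and 0.000261 for Cemip. The PH cBEC libraries gave 7.14 and 2.50 for Serpinb2, but 0.0807 and 0 for Cemip. The 7.14 and 0.0807 are of library 1, tagged normal, and if it were counted by its tag they would be the highest normal values. Whether mesothelial cells carried either RNA was not tested.

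**Figure D2:**
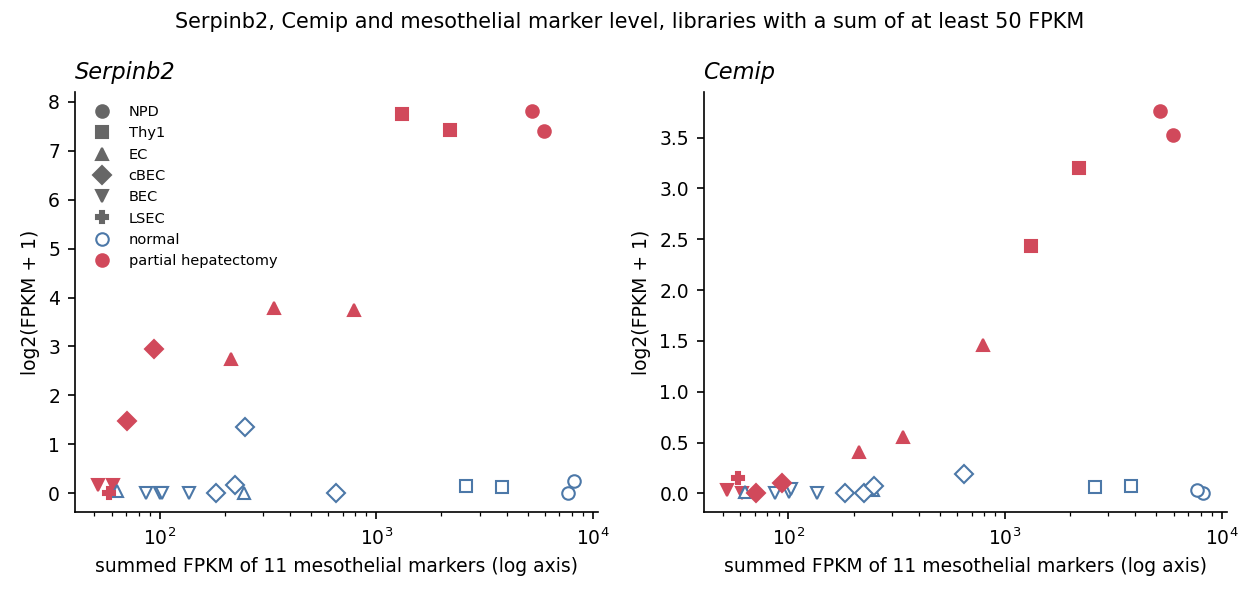
Each point is 1 library with a mesothelial sum of at least 50 FPKM; the horizontal axis is the summed FPKM of the 11 markers on a log axis and the vertical axis is log2(FPKM + 1) of Serpinb2 (left) or Cemip (right), with symbols for population and fill for treatment. PH libraries of EC, Thy1 and NPD climb from left to right for Cemip, while normal libraries lie at or below 0.143 FPKM of Cemip at every marker sum.

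Genes whose RNA followed the same pattern were ranked by Pearson's r over the 55 libraries, on log2(FPKM + 1), among 16527 symbols. These correlations rest on the 4 PH libraries of NPD and Thy1 and are a description. Of the 5 highest for each gene, 4 are named here. For Serpinb2 they were Cemip (r = 0.839), Sh2d5 (0.822), Stfa3 (0.818) and Prokr2 (0.816). For Cemip they were Ecel1 (0.951), Sprr2h (0.941), Cntn1 (0.938) and Prokr2 (0.936), and Serpinb2 stood at place 22. Cemip was thus the gene most like Serpinb2, whereas 21 others were more like Cemip.

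Of those named other than Serpinb2 and Cemip, Sh2d5 reached the highest level after PH in both sorts. It was at 0.0643 FPKM in normal NPD and 10.5 ± 3.88 FPKM in PH NPD, and at 0.190 FPKM in normal Thy1 and 7.45 ± 1.5 FPKM in PH Thy1 (means, SD, n = 2 each). Sprr2h, a small proline-rich protein of cornifying epithelia, was listed at 0 in all 4 normal libraries of the 2 sorts and in the 3 PH EC libraries, and at 2.71 ± 1.89 and 2.53 ± 0.800 FPKM in PH NPD and PH Thy1. Stfa3, a stefin, averaged 4.57 FPKM in PH NPD and 2.64 FPKM in PH Thy1 and ranged from 0 to 5.70 FPKM in PH EC. Prokr2 (a prokineticin receptor), Ecel1 and Cntn1 (a neural adhesion molecule) stayed below 3 FPKM in all 4 of those libraries.

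**Figure D3:**
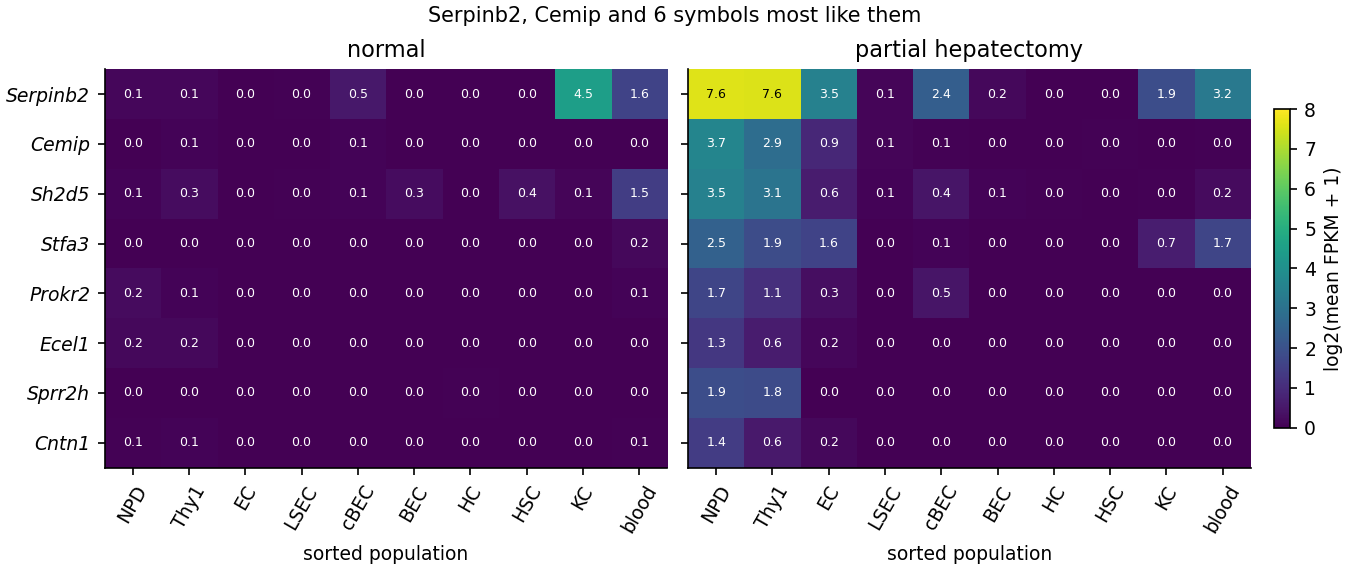
Mean level as log2(mean FPKM + 1) of Serpinb2, Cemip and 6 other symbols most like them (vertical axis) in the 10 populations (horizontal axis), for normal liver (left) and after partial hepatectomy (right). NPD and Thy1 after PH hold the highest means of all 8 genes, and Serpinb2 differs from Cemip by its signal in normal KC, in blood and in cBEC.

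The genes next to each on the chromosome were examined for the same change. Serpinb2 lies in a cluster of clade B serpins, and of the 9 other symbols within 500000 bases, 8 stayed under 1 FPKM in all 8 NPD and Thy1 libraries. The nearest, Serpinb10, begins 3402 bases beyond the end of Serpinb2. It was at 0.0964 and 0.0415 FPKM in normal and 0.236 and 0.257 FPKM in PH NPD, and at 0.0425 and 0.0516 against 0.283 and 0.141 FPKM in Thy1. PH was above normal in both sorts, at a level far below that of Serpinb2. Serpinb8, the only neighbour above 1 FPKM, was at 7.71 and 4.95 FPKM in normal and at 3.13 and 2.70 FPKM in PH NPD. Serpinb7 was listed at 0 in all 4 PH libraries and at 0.623 FPKM or less in the normal ones.

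Of the 10 symbols within 500000 bases of Cemip, 3 stayed under 1 FPKM. PH was above normal for 2 of them in NPD and for 3 in Thy1. These were Mesdc1 and Arnt2 in both sorts and Mesdc2 in Thy1. They are named after their values were seen. Mesdc1 was at 15.8 to 19.9 FPKM in normal and 20.2 to 22.6 FPKM in PH NPD, and at 17.1 to 19.6 FPKM in normal and 30.2 to 63.5 FPKM in PH Thy1. Abhd17c, 22850 bases away, was at 25.2 to 33.1 FPKM in normal and 27.5 to 28.0 FPKM in PH NPD. Over all symbols tested the shares given above were 36.9% in NPD and 24.5% in Thy1. Those shares cover only symbols that passed the filter on low values, whereas the 10 neighbours include the 3 under 1 FPKM. The counts of neighbours are thus not on the same basis, and no conclusion is drawn from them.

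Genes of plasminogen activation were tested in each sort with limma on log2(FPKM + 1), two-sided, with Benjamini-Hochberg adjustment over all symbols tested. In NPD 2 of the 10 genes tested, of 16 in the list, rose and none fell. Among all 13024 symbols tested 9.65% rose and 5.51% fell. The receptor for urokinase, Plaur, went from 44.4 and 29.5 FPKM to 162.4 and 155.3 FPKM, a change of 2.10 log2 units (SE 0.24, adjusted p = 0.0117). Plaur is the gene of the 2 that is described here.

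The enzymes themselves did not pass in the fit of the NPD libraries alone. Urokinase, Plau, was at 9.91 and 2.41 FPKM in normal and 25.4 and 29.2 FPKM in PH libraries, with a change of 2.21 log2 units (SE 0.55, adjusted p = 0.0559). In a limma fit of all 20 groups Plau did pass in NPD (adjusted p = 0.0141). Tissue plasminogen activator, Plat, was at 78.1 and 76.4 FPKM in normal and 97.6 and 139 FPKM in PH libraries (limma adjusted p = 0.136, and 0.781 in the fit of all groups). For 6 of the 10 tested genes PH lay above normal in every library, where 36.9% of all symbols did, and the median log2 change of the list was 0.51, against 0.09 over all symbols tested. Plasminogen itself, Plg, is listed at 0 in all 8 libraries of the 2 sorts, as are some other genes abundant in hepatocytes, so its level there is not known.

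In Thy1 none of the 10 genes tested passed in the limma fit of its own 4 libraries. That fit called 0.00747% of 13389 symbols higher and 0% lower. The 1 symbol called was Serpinb2, which was chosen for this contrast, while 2417 had an unadjusted p under 0.05, of which 4 were in this list. Plaur was at 53.7 and 24.3 FPKM in normal and at 104.3 and 108.3 FPKM in PH Thy1. The groups did not overlap, and the log2 change was 1.53 (adjusted p = 0.197). Plau was at 55.9 and 40.1 FPKM in normal and 44.8 and 16.4 FPKM in PH libraries, which overlap. The median log2 change of the list was 0.10, against -0.06 over all symbols.

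A limma fit of all 20 groups, in which the small groups share 1 estimate of the spread, called 3.91% of symbols higher and 7.5% lower in Thy1. There 1 gene of the plasminogen list passed upward and 1 downward. Thbd, which encodes thrombomodulin of the endothelial surface, was at 217 and 184 FPKM in normal and 637 and 1276 FPKM in PH Thy1 (adjusted p = 0.0221), and Serpine2, another protease inhibitor, at 76.2 and 18.7 against 12.9 and 3.08 FPKM (adjusted p = 0.0124). These 2 are named after their values were seen. Endothelial markers in the same libraries had a summed FPKM of 1046 and 1320 in normal and 1448 and 2777 in PH Thy1, and portal fibroblast markers of 2105 and 2438 against 1624 and 683. Their part was not tested.

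Of the other clade B serpins, 26 are in the table and 7 were abundant enough to test. In NPD 2 rose and none fell, where 9.65% of all symbols tested rose and 5.51% fell. Serpinb5, known as maspin, went from 0 and 0.210 FPKM to 8.37 and 8.46 FPKM, a change of 3.10 log2 units (SE 0.27, adjusted p = 0.00916). Serpinb9b went from 0 and 0.157 FPKM to 2.02 and 2.59 FPKM, a change of 1.61 log2 units (SE 0.31, adjusted p = 0.0309), a call lost with no filter on low values (adjusted p = 0.0506), in a limma fit of all 20 groups (0.118) and with a pseudocount of 0.1 (0.0531). Both passed the filter through their PH libraries only, so for these genes only a rise could have been called. The count of 2 rises is therefore not read as a result about the family. The fit of all 20 groups called 7.51% of symbols higher and 4.16% lower in NPD. The other 5 did not pass in the fit of the sort's own libraries, and 4 of the 7 had every PH library below normal, where 27.6% of all symbols did. The median log2 change was -0.41.

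In Thy1 none of the 7 passed in the fit of its own libraries, with 2 at an unadjusted p under 0.05, where 2417 of all 13389 symbols were. Serpinb5 was at 0.129 and 0.0415 FPKM in normal and at 6.59 and 3.34 FPKM in PH Thy1, a change of 2.40 log2 units (adjusted p = 0.13, and 0.00012 in the fit of all groups). Within Thy1, Serpinb5 passed the filter on low values through its PH libraries only, so only a rise could have been called. Serpinb9b was at 0.623 and 9.15 FPKM in normal and at 15.9 and 18.9 FPKM in PH Thy1 (limma adjusted p = 0.279, and 0.0253 in the fit of all groups). In that fit 2 family members were called higher, these 2, and 1 lower, Serpinb7 (0.376 and 0.623 FPKM in normal, 0 and 0 in PH Thy1). Of all symbols it called 3.91% higher and 7.5% lower in Thy1. The rise of Serpinb5 in NPD exceeded that in Thy1 by 0.69 (SE 0.61, limma adjusted p = 0.896).

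The hyaluronan genes were examined in the order of synthesis, breakdown and binding. In NPD 6 of 18 tested genes, of 32 in the list, rose and none fell, with a median log2 change of 0.79 against 0.09 over all symbols. Over all symbols 9.65% rose. For 11 of the 18 every PH library lay above normal, where 36.9% of all symbols did. The synthase Has1 went from 36.8 and 35.5 FPKM to 140.9 and 242.6 FPKM, a change of 2.32 log2 units (SE 0.29, adjusted p = 0.0139). Ugdh, which makes a sugar precursor of hyaluronan, went from 52.2 and 35.6 FPKM to 113.4 and 111.2 FPKM, a change of 1.36 log2 units (SE 0.23, adjusted p = 0.023). Its call was lost in the fit of all groups (0.0554) and with no filter (0.0614). The synthase Has2 was at 0.0755 and 0 FPKM in normal and 0.386 and 1.11 FPKM in PH NPD, too low to test in the libraries of that sort. In the fit of all groups its limma adjusted p in NPD was 0.0477.

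Among the genes of breakdown, Tmem2 (now named Cemip2, a cell-surface relative of Cemip) rose in NPD from 4.25 and 2.81 FPKM to 17.1 and 13.7 FPKM, a change of 1.87 log2 units (SE 0.26, adjusted p = 0.0168). The hyaluronidases did not pass: Hyal2 was at 15.7 and 10.5 FPKM in normal and 22.5 and 19.1 FPKM in PH NPD (limma adjusted p = 0.132), and Hyal1 at 2.75 and 4.53 against 6.11 and 4.34 FPKM (0.38). Of the binding proteins, the receptor Cd44 went from 6.67 and 4.81 FPKM to 84.0 and 67.3 FPKM, a change of 3.51 log2 units (SE 0.22, adjusted p = 0.00637). The matrix proteoglycan Vcan went from 2.91 and 1.67 FPKM to 19.9 and 19.2 FPKM, a change of 2.67 log2 units (SE 0.26, adjusted p = 0.00962), and the receptor Layn from 5.67 and 3.50 FPKM to 12.1 and 13.0 FPKM, a change of 1.30 log2 units (SE 0.26, adjusted p = 0.0349). Layn was lost with no filter (0.0771). Tnfaip6, which cross-links hyaluronan, was at 4.11 and 0.414 FPKM in normal and at 11.1 and 24.7 FPKM in PH NPD (limma adjusted p = 0.0592, and 0.00255 in the fit of all groups).

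In Thy1 none of the 20 hyaluronan genes tested passed in the fit of its own libraries, with 4 at an unadjusted p under 0.05, where 2417 of all 13389 symbols were. The median log2 change of the list was 0.17. Cd44 was at 7.23 and 8.51 FPKM in normal and 73.2 and 52.1 FPKM in PH Thy1, a change of 2.83 log2 units (adjusted p = 0.0922, and 0.000724 in the fit of all groups). Tmem2 was at 16.0 and 68.5 FPKM in normal and 151 and 310 FPKM in PH Thy1, 2.66 (0.205, and 0.000143 in the fit of all groups). Hyal2 was at 43.6 and 125.6 FPKM in normal and 128.3 and 229.1 FPKM in PH Thy1 (0.354, and 0.0366 in the fit of all groups). Has1 was at 56.6 and 81.0 FPKM in normal and at 88.7 and 89.6 FPKM in PH Thy1, with a change of 0.39 log2 units (adjusted p = 0.523). The fit of all groups called 3 genes of the list higher, those above other than Has1, and 2 lower, Itih5 and Itih2, which encode inter-alpha-trypsin inhibitor chains. Of all symbols it called 3.91% higher and 7.5% lower in Thy1.

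The difference between the 2 sorts was tested gene by gene over these lists, with adjustment over all 16527 symbols. Of these 1.07% passed with a difference, NPD minus Thy1, above 0 and 0.236% with one below 0. Has2 passed, with a change larger in NPD than in Thy1 by 1.34 (SE 0.35, limma adjusted p = 0.0373), at levels of 3.36 and 7.31 FPKM in normal and 5.81 and 1.26 FPKM in PH Thy1, which overlap. Its NPD levels were low, at 0.0755 and 0 FPKM in normal and 0.386 and 1.11 FPKM in PH libraries. This test pools the spread of all 20 groups. For the Thy1 change of Has2 the pooled SE was 0.25, against 0.65 in the libraries of Thy1 alone. Has1 differed by 1.93 (SE 0.84, limma adjusted p = 0.358), Vcan by 1.84 (SE 0.52, limma adjusted p = 0.0626), Plau by 2.99 (SE 0.88, limma adjusted p = 0.0788) and Tnfaip6 by 2.95 (SE 0.89, limma adjusted p = 0.0901), none of which passed. For Cd44 the difference was 0.68 (SE 0.82, limma adjusted p = 0.982).

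**Figure D4:**
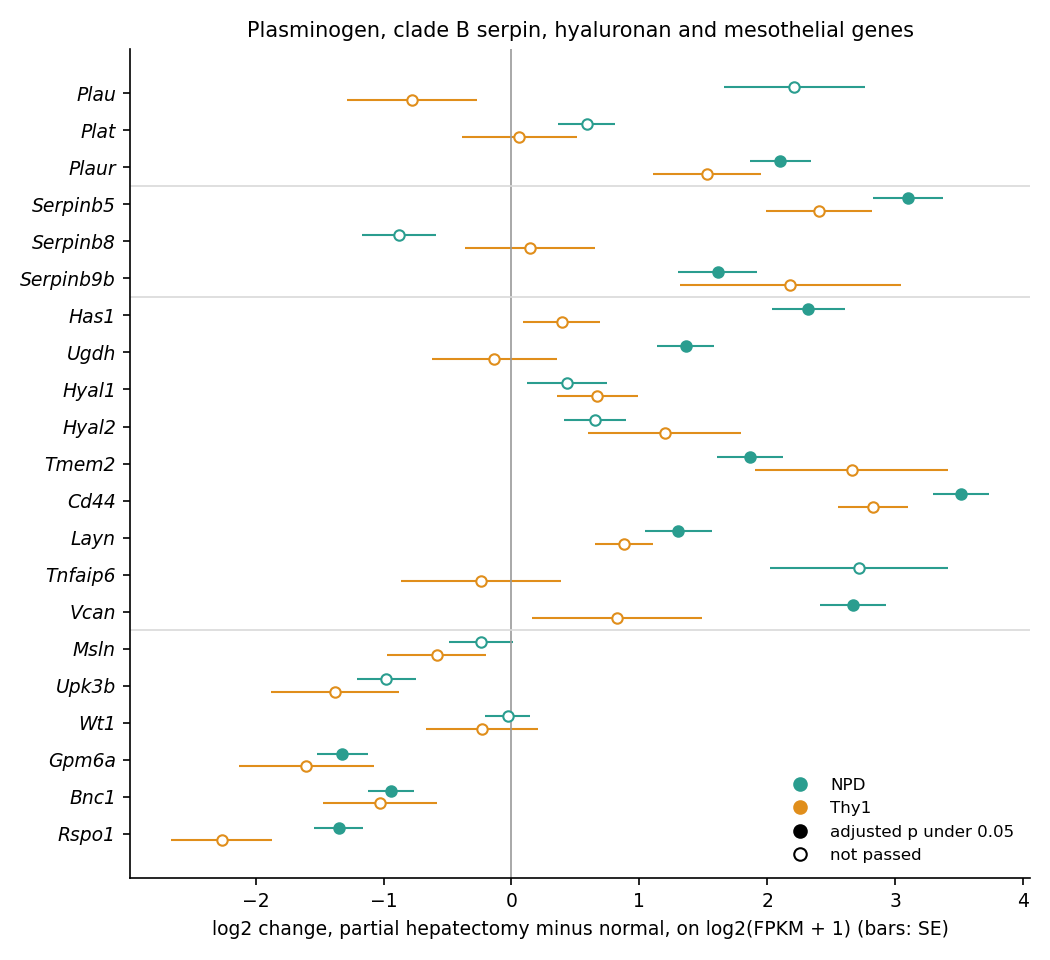
Log2 change from normal to PH (horizontal axis, on log2(FPKM + 1), bars 1 SE) of named genes of plasminogen activation, the clade B serpins, hyaluronan and the mesothelium (vertical axis, top to bottom), in NPD and Thy1, each fitted on the sort's own 4 libraries. Filled points passed an adjusted p of 0.05, which 12 of the genes shown did in NPD and none in Thy1. Over all symbols the same fits called 1974 of 13024 in NPD and 1 of 13389 in Thy1. The counts of filled points therefore do not measure a difference between the sorts. Cd44 and Serpinb5 lay at 3.51 and 3.10 in NPD and at 2.83 and 2.40 in Thy1.

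No mesothelial marker passed upward in NPD or Thy1. In NPD 3 of 11 fell and 8 did not pass, with a median log2 change of -0.24. Among all symbols tested in NPD 5.51% fell and 9.65% rose. Every PH library lay above normal for 3 of the 11, against 36.9% of all symbols, and below for 5, against 27.6%. The 3 were Upk1b, Aldh1a2 and Pkhd1l1, named after their values were seen, with log2 changes of 0.42, 0.53 and 0.35 and limma adjusted p of 0.29, 0.127 and 0.347. The secreted Wnt agonist Rspo1 went from 510 and 540 FPKM to 192 and 219 FPKM, a change of -1.35 log2 units (SE 0.19, adjusted p = 0.017). The membrane protein Gpm6a went from 1230 and 1123 FPKM to 467 and 472 FPKM, -1.32 (SE 0.20, limma adjusted p = 0.0185), and the transcription factor Bnc1 from 127 and 137 FPKM to 61.9 and 74.6 FPKM, -0.94 (SE 0.18, limma adjusted p = 0.0309). None of the 3 passed in the fit of all groups. Msln was at 2074 and 1548 FPKM in normal and 1420 and 1622 FPKM in PH NPD (limma adjusted p = 0.548), Upk3b at 1902 and 2151 against 921 and 1144 FPKM (0.0505), and Wt1 at 113 and 134 against 119 and 121 FPKM (0.927).

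In Thy1 none of the 11 markers passed in the fit of its own libraries, with 4 at an unadjusted p under 0.05, where 2417 of all 13389 symbols were. For 6 of the 11 markers every PH library lay below normal, where 28.7% of all symbols did, and the median log2 change was -0.74. Rspo1 was at 223 and 229 FPKM in normal and 64.3 and 33.2 FPKM in PH Thy1, -2.27 (limma adjusted p = 0.13, and 0.0021 in the fit of all groups).

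All 13 calls in NPD depended on having both PH libraries. Without either PH NPD library the fit called 0 symbols, and the adjusted p of the 13 genes ranged upward from 0.197. Their log2 changes kept their sign under each alternative in which they were tested, and without either normal NPD library each of the 13 still passed.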

How the data were processed

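RNA was measured in 55 libraries of 10 sorted populations. The authors deposited FPKM, going by the name of their table, with 36141 transcript rows and no read counts. The submitters' processing notes name CASAVA 1.8.2, Bowtie 1.0.0 and the build mm9. The counting tool and the filters are not given in the sources used here. All sample columns matched a title, and 0 were left over. For each of 24478 symbols the row with the highest mean was used. Groups follow the titles.

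The R package limma 3.58.1 (R 4.3.3) was applied to log2(FPKM + 1) with trended, robust variances. Tests were two-sided and p was adjusted by Benjamini-Hochberg, with a threshold of 0.05. Changes on the log2(FPKM + 1) scale come out smaller than the true fold for genes of low level. PH was compared with normal in the libraries of each sort, for symbols with at least 1 FPKM in at least 2 of the 4 libraries. The difference between sorts used all 20 groups. Figures were drawn with matplotlib 3.10.9.

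Named genes were the genes past the threshold in the lists for plasminogen activation, clade B serpins, hyaluronan and mesothelial markers, at most 5 each way, plus a set named whatever its values, and the 5 highest correlations with each of Serpinb2 and Cemip. Predicted genes, microRNAs and snoRNAs were left out of the correlations. Both genes and all lists were chosen with earlier results of these data known. Muc16 of the mesothelial list was not analysed here, and some named genes that stay in the counts are not reported here. FPKM give no depth, so no counting interval is given. Alternatives were another pseudocount, no filter, other scalings, the mean over the rows of a symbol, the fit of all groups, a replicate block, leaving out each library, and, added after seeing the data, genes low in hepatocytes only.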

Additional observations from a re-analysis of the deposited data

Results flagged for a closer look

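In 3 of the 8 groups of 4 or 5 libraries in which Serpinb2 or Cemip was examined, 1 library lay far from the others, where chance gives about 1 in 20 groups for normally spread values. These values are mostly zeros and steps of the table, for which that rate was not tested. In normal cBEC, library 4 had 1.56 FPKM of Serpinb2, against 0 to 0.123 FPKM in the other 3. In PH LSEC, library 3 had 0.291 FPKM of Serpinb2, against at most 0.0301 FPKM in the other 4. In PH HC, library 4 had 0.02 FPKM of Cemip and the other 3 were listed at 0, a difference of 2 units of the rounding.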

How the results depend on the processing

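Of 183 recomputed values, 134 stayed the same, 42 moved, 2 became stronger and 5 reversed. The cause of a change was not tested unless stated. Those that stayed the same include the Thy1 list counts that were 0 both times, from a fit that called 1 symbol, so the tally does not measure stability. The 2 that became stronger are of the Cemip difference between the sorts, which is given no test here. The symbols called in NPD numbered 1974 as reported, 648 with no filter on low values, 1241 among symbols low in hepatocytes (fewer were tested), and 0 to 4481 when a library was left out, where a lone library is assumed to vary like the other group. The plasminogen calls in NPD were 2, with 1 under no filter and 0 to 6 by library. The clade B calls were 2, with 1 under a pseudocount of 0.1, under no filter and in the fit of all 20 groups, and 0 to 4 by library. The hyaluronan calls were 6 and the mesothelial calls 3, with 0 to 8 and 0 to 5 by library, and 0 mesothelial calls in the fit of all groups. In Thy1 the fit of all groups called 1886 symbols and 2 plasminogen, 3 clade B, 5 hyaluronan and 1 mesothelial gene, against 1, 0, 0, 0 and 0 as reported and 0 symbols without any single library.

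Same-numbered libraries were not paired by the labels, and their deviations correlated at 0.0887 in NPD and 0.0318 in Thy1. With a replicate block, 485 symbols were called in Thy1, with 3 plasminogen, 1 clade B, 2 hyaluronan and 1 mesothelial gene. With a pseudocount of 0.1 the log2 changes became 10.2 (Serpinb2 in NPD), 9.94 (Serpinb2 in Thy1), 6.73 (Cemip in NPD) and 5.38 (Cemip in Thy1). The log2 change in NPD minus that in Thy1 reversed for Serpinb2, at 0.03 as reported, -0.01996 with quantile normalization, -0.02315 with upper-quartile scaling, and -0.1765 to 0.2329 over the libraries left out, among them -0.09328 without normal NPD library 2 and -0.1373 without PH Thy1 library 1. For Cemip it was 0.881 with no filter and 0.4946 to 1.267 over the libraries left out; these 2 genes are given no test. With 2 libraries a group, unknown depth and table steps near 0.01 FPKM, Cemip in populations other than NPD, Thy1 and EC was at most 0.210 FPKM.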
